A study of Mus musculus with 7 samples.

Results

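The 9 genes described here are a hand-picked group with roles in T-cell quiescence and lymphoid homing: *S1pr1*, *Ccr7*, *Il7r*, *Btg1*, *Btg2*, *Foxo1*, *Foxp1*, *Klf2* and *Klf3*. They were found by symbol, 9 of 9, among the 55367 genes of the count table, and all 9 were among the 12623 genes tested, those that averaged 5 counts or more per library. The question asked of them was whether their transcripts differed between CD8+ T cells given leukemic and those given healthy vesicles. The cells were CD8+ T lymphocytes sorted by flow cytometry from spleens of healthy mice of the strain Foxp3 YFP/cre, in which a YFP-Cre fusion marks Foxp3-expressing regulatory T cells. After 48 hours in culture with small extracellular vesicles (sEV), labelled as given at 100 µg/ml, RNA was profiled by 3′ RNA-seq. The study's methods instead describe amounts set by each kind of spleen, so the dose may have differed between leukemic and healthy vesicles. The 4 HCME-sEV libraries are from cells that received vesicles of the healthy splenic microenvironment, and the 3 LME-sEV libraries from cells that received vesicles of the leukemic microenvironment, made from spleens of Eμ-TCL1 mice, a model of chronic lymphocytic leukemia in which B cells express the TCL1 oncogene from an immunoglobulin enhancer. The study's methods describe culture with plate-bound anti-CD3, CD28 antibody and IL2 for CD8+ T cells isolated by negative selection. They do not state it for the sorted cells used here, so the stimulus that both groups received is not certain. Transcripts of activation markers were counted in every library of both groups. Each library held at least 1357 counts of *Il2ra* and 3814 of *Gzmb*, but as few as 21 of *Cd38*. No culture without vesicles was analysed here, nor one described as resting, and the mice's age is not in the labels.

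A resting T cell keeps its cell cycle and metabolism low and circulates between blood and lymphoid organs. FOXO1 is a transcription factor that holds this state and drives *Il7r*, *Ccr7* and *Klf2*, and KLF2 in turn drives *S1pr1*; antigen receptor and PI3K-AKT signaling send FOXO1 out of the nucleus, and the program is switched down. FOXP1 also holds naive T cells quiescent and competes with FOXO1 at *Il7r*, KLF3 is a repressor that binds the same CACCC elements as KLF2, and BTG1 and BTG2 are antiproliferative proteins that promote shortening of mRNA tails.

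The libraries held 3689831 to 5030522 counted molecules, and no member had fewer than 116 counts in a library. Levels are given as CPM, the count per 1000000 counts of a library after scaling by edgeR's trimmed mean of M-values, with 3 counts worth 0.582 to 0.807 CPM. Defining markers of the labelled cells were present in every library, with *Cd8a* at 341 to 435 CPM, and *Cd4* had at most 3 counts in any. Library HCME-sEV 1 stood apart, since its counts differed from those of the other HCME-sEV libraries by a chi-square per degree of freedom of 4.54 to 6.66, where the other pairs within a group gave 2.19 to 3.96. It was the lowest of the 4 HCME-sEV libraries for 8 of the 9 members, all but *Foxo1*, so the main results are also given without it. The labels do not say whether libraries of a group came from separate mice, cultures or vesicle preparations, and the error terms measure only the spread between libraries, which may be technical. In these bulk samples, fewer cells of a type and less RNA per cell cannot be told apart.

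*Btg2*, *S1pr1* and *Il7r* were higher with LME-sEVs, by 1.51-fold, 1.55-fold and 1.43-fold, and no member was lower at the threshold. These 3 of 9 members (33.3%) passed a false discovery rate (FDR) of 0.05 in edgeR's quasi-likelihood fit over all 12623 genes, where 473 genes (3.75%) were called higher, 658 (5.21%) lower and 1131 (8.96%) in either direction. The other 6, *Ccr7*, *Foxo1*, *Klf2*, *Klf3*, *Btg1* and *Foxp1*, did not pass. The 9 genes were chosen with earlier results of these data known, so these shares describe them and are not a test of enrichment. The count of members called lower was also 0 with DESeq2 and with limma-voom, and 0 at an unadjusted p under 0.05, where 5 were higher. At that looser threshold 10.4% of all tested genes were higher and 12.3% lower. Estimated log2 fold changes (log2FC, LME-sEV over HCME-sEV) were above 0 for 7 members, with a median of 0.25 over the 9 against 0.01 over all tested genes. None of the members reached a log2FC of 1 in size, which 162 tested genes (1.28%) did together with the FDR threshold. Leaving out LME-sEV 2 or LME-sEV 3 removed *S1pr1* and left 2 members called, while the call of all genes dropped to 168 higher and 223 lower without LME-sEV 2 and to 195 and 263 without LME-sEV 3. Without HCME-sEV 1 the same 3 members were called, and 408 genes were higher.

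**Figure D1:**
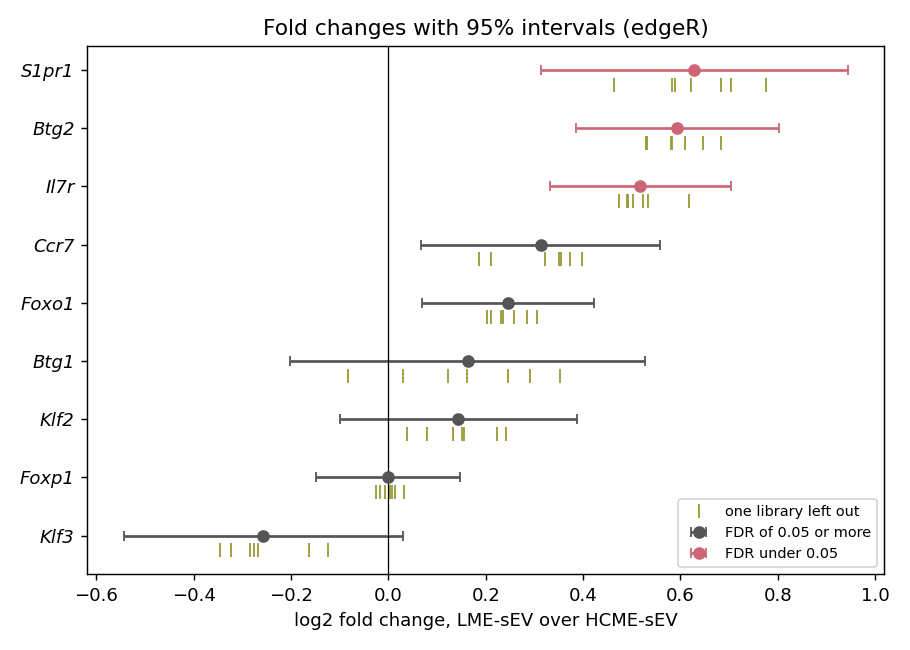
Estimated log2FC of the 9 genes, LME-sEV over HCME-sEV, with 95% intervals from the edgeR fit; the zero line marks no difference. *S1pr1*, *Btg2* and *Il7r* lie at 0.63, 0.59 and 0.52, and *Foxp1* lies at zero with the narrowest interval.

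**Figure D2:**
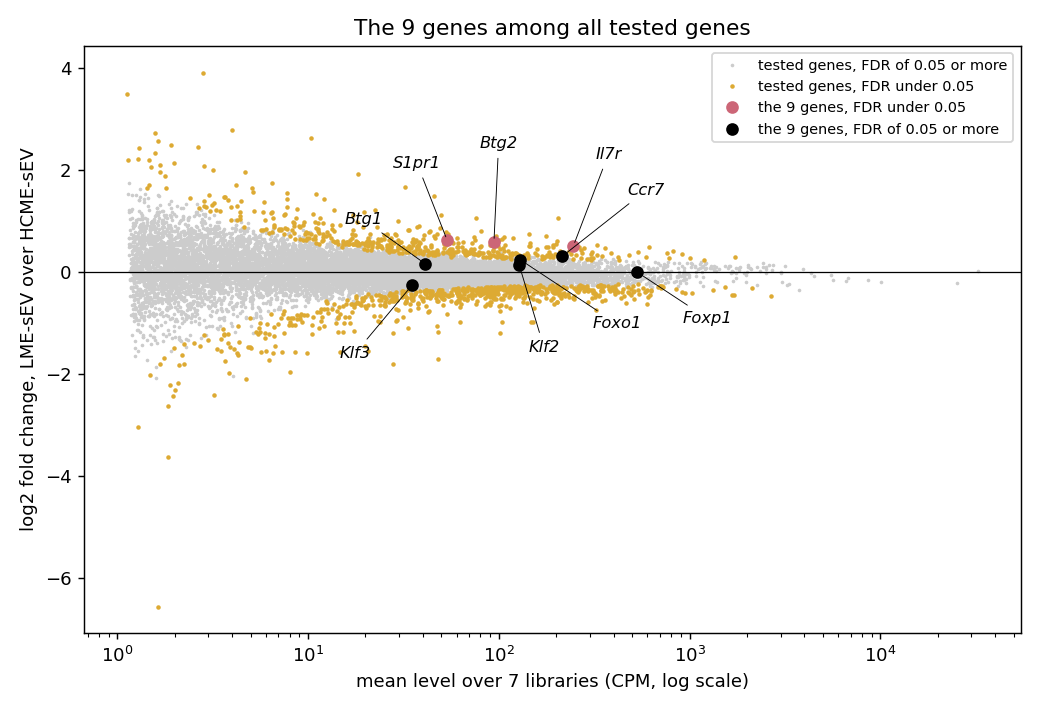
Log2FC against the mean level over the 7 libraries (CPM, log scale) for the 12623 tested genes, with the 9 genes marked. The 9 genes span 35.1 to 531 CPM, and the 3 that passed the FDR threshold lie above the zero line.

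The 9 transcripts covered a 15.2-fold range of level. These are counts of captured 3′ ends, one position per transcript, so the order needs no length but does depend on how well each 3′ end was captured. Over the 7 libraries *Foxp1* was highest, with a mean of 531 CPM, followed by *Il7r* at 246 CPM, *Ccr7* at 215 CPM, *Foxo1* at 129 CPM, *Klf2* at 128 CPM, *Btg2* at 94.3 CPM, *S1pr1* at 53.6 CPM, *Btg1* at 41.2 CPM and *Klf3* at 35.1 CPM. *Foxp1* exceeded *Il7r*, *Ccr7* exceeded *Foxo1*, *Klf2* exceeded *Btg2* and *Btg2* exceeded *S1pr1* in 7 of 7 libraries. *S1pr1* exceeded *Btg1* in 6 of 7 and tied with it, at 116 counts each, in HCME-sEV 1. Neighbors that changed places between libraries were *Il7r* with *Ccr7*, *Foxo1* with *Klf2*, and *Btg1* with *Klf3*, each in this order in 5 of 7. For these 3 pairs the order held in 3 of 3 LME-sEV libraries but in only 2 of 4 HCME-sEV libraries.

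**Figure D3:**
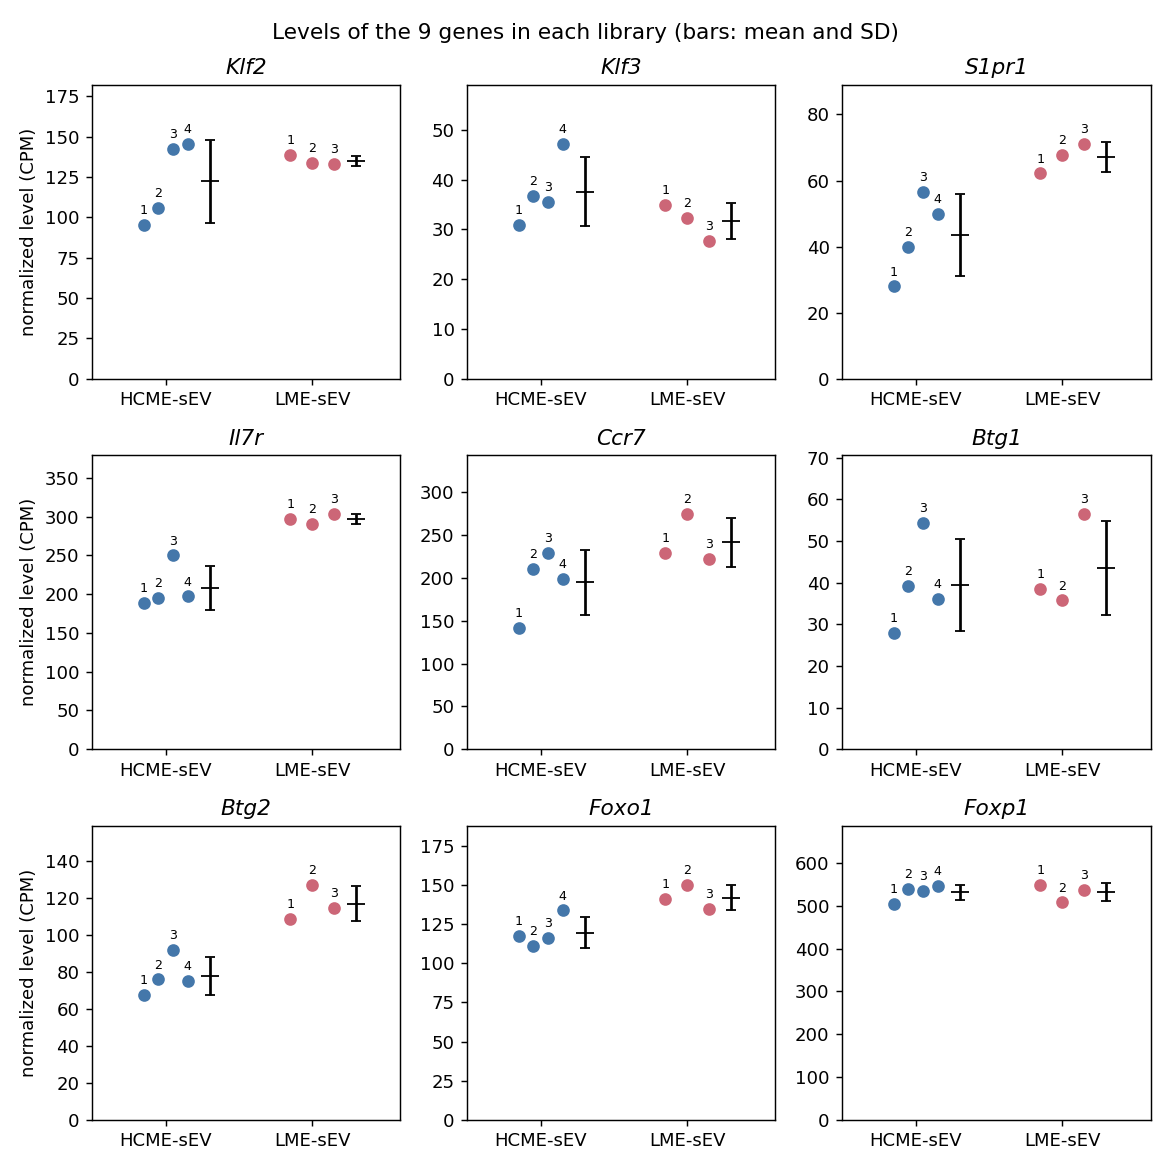
Level of each of the 9 genes (CPM) in the 4 HCME-sEV and 3 LME-sEV libraries; points are libraries and bars the group mean with its SD. The groups are separate for *S1pr1*, *Il7r*, *Btg2* and, by a narrow gap, *Foxo1*, and overlap for the other 5 genes.

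*S1pr1* and *Ccr7* encode the receptors that move T cells through lymphoid organs. *S1pr1*, on chromosome 3 (GRCm38, 115710433 to 115715072, minus strand), encodes the sphingosine-1-phosphate receptor that cells need in order to leave lymph nodes and thymus. Its levels in HCME-sEV libraries 1 to 4 were 27.9, 39.8, 56.5 and 49.8 CPM, and in LME-sEV libraries 1 to 3 they were 62.2, 67.6 and 71.2 CPM. Every LME-sEV library was above every HCME-sEV library, and HCME-sEV 1 was the lowest of the 7. The means were 43.5 ± 12.5 CPM (SD, n = 4) and 67.0 ± 4.54 CPM (SD, n = 3), a log2FC of 0.63 with a standard error of 0.15 and an FDR of 0.0124, the largest estimate among the members. The 95% interval of the fold was 1.24 to 1.92. Without HCME-sEV 1 the log2FC was 0.46 (FDR of 0.0133), and the call was lost without LME-sEV 2 (0.62, FDR of 0.0669) and without LME-sEV 3 (0.58, FDR of 0.0747).

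*Ccr7*, on chromosome 11 (99144196 to 99155077, minus strand), encodes the chemokine receptor that brings naive and central memory T cells into lymph nodes. It was measured at 142, 210, 229 and 199 CPM with HCME-sEVs and at 229, 275 and 222 CPM with LME-sEVs. The groups overlapped, since HCME-sEV 3 was above LME-sEV 3, and the means of 195 ± 37.7 CPM (SD, n = 4) and 242 ± 28.5 CPM (SD, n = 3) gave a log2FC of 0.31 with an FDR of 0.109. Its 95% interval of the fold ran from 1.05 to 1.47. The estimate was 0.19 without HCME-sEV 1 (FDR of 0.217) and 0.40 without HCME-sEV 3, where it passed the threshold (FDR of 0.0294).

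*Il7r*, on chromosome 15 (9505788 to 9530176, minus strand), encodes the α chain of the receptor for IL-7, the survival cytokine of resting T cells. Levels were 188, 195, 250 and 197 CPM with HCME-sEVs and 298, 291 and 303 CPM with LME-sEVs. The 3 LME-sEV values lay close together and above all 4 HCME-sEV values, of which HCME-sEV 3 stood well above the rest. The means were 208 ± 28.4 CPM (SD, n = 4) and 297 ± 6.34 CPM (SD, n = 3). The log2FC of 0.52 (standard error of 0.089, FDR of 0.00125) kept its call in 7 of 7 fits that left out a library, with a range of 0.47 to 0.62, and was 0.47 without HCME-sEV 1.

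*Btg2* and *Btg1* are a pair of sister genes. *Btg2*, on chromosome 1 (134075170 to 134079120, minus strand), is a gene of the BTG/TOB family that is induced by p53. It was at 67.2, 75.8, 91.8 and 75.2 CPM with HCME-sEVs and at 109, 127 and 114 CPM with LME-sEVs, so that the lowest LME-sEV library was above the highest HCME-sEV library. The means were 77.5 ± 10.3 CPM (SD, n = 4) and 117 ± 9.35 CPM (SD, n = 3), a log2FC of 0.59 with a standard error of 0.10 and an FDR of 0.00104, the smallest among the members. The 95% interval of the fold was 1.31 to 1.74. The call held in 7 of 7 fits that left out a library, between 0.53 and 0.68, with 0.53 without HCME-sEV 1.

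*Btg1*, on chromosome 10 (96617006 to 96622809, plus strand), encodes the sister protein. Its levels were 27.9, 39.3, 54.4 and 36.1 CPM with HCME-sEVs and 38.5, 35.7 and 56.4 CPM with LME-sEVs. Both groups held 1 library far above the others, HCME-sEV 3 and LME-sEV 3, and the means of 39.4 ± 11.1 CPM (SD, n = 4) and 43.5 ± 11.2 CPM (SD, n = 3) differed by a log2FC of 0.16 with an FDR of 0.639. The estimate had no stable direction, being 0.03 without HCME-sEV 1 and -0.083 without LME-sEV 3. A near-identical copy of the *Btg1* 3′ end lies in *Gm14519*, so its reads may have been split or dropped, and the value is uncertain for that reason. The difference between the sister genes was itself not past the threshold: the log2 ratio of *Btg2* over *Btg1* averaged 0.997 ± 0.21 with HCME-sEVs (SD, n = 4) and 1.44 ± 0.40 with LME-sEVs (SD, n = 3), with an exact two-sided permutation p of 0.143 and an adjusted p of 0.143 over the 3 pairs of related members compared.

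Among the transcription factors, no member passed the threshold. Exons of *Klf3* and *Foxo1* overlap annotated genes on the opposite strand (*Gm20033* and *Gm20402*) and those of *Foxp1* genes on its own strand (*Gm20696* and *Gm49348*), whose reads may be mixed with theirs, since the strand setting of the counting is not given in the sources used here. *Foxo1*, on chromosome 3 (52268336 to 52353221, plus strand), was at 118, 111, 116 and 134 CPM with HCME-sEVs and at 141, 150 and 135 CPM with LME-sEVs. The groups did not overlap, though HCME-sEV 4 and LME-sEV 3 were nearly level. Means of 120 ± 9.87 CPM (SD, n = 4) and 142 ± 7.76 CPM (SD, n = 3) gave a log2FC of 0.25 with an FDR of 0.0773. The 95% interval of the fold, which is not adjusted for the number of genes, was 1.05 to 1.34, and without HCME-sEV 4 the log2FC was 0.30 with an FDR of 0.0374.

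*Foxp1*, on chromosome 6 (98925338 to 99522721, minus strand), was at 505, 540, 535 and 546 CPM with HCME-sEVs and at 549, 508 and 537 CPM with LME-sEVs. It was the most abundant member and the most even one, with means of 531 ± 18.3 CPM (SD, n = 4) and 531 ± 21.3 CPM (SD, n = 3). The 95% interval of the fold, 0.902 to 1.11, bounds the change that these libraries leave room for. The log2 ratio of *Foxo1* over *Foxp1* was -2.15 ± 0.11 with HCME-sEVs (SD, n = 4) and -1.90 ± 0.13 with LME-sEVs (SD, n = 3), without overlap, at an exact two-sided permutation p of 0.0571 and an adjusted p of 0.129.

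*Klf2*, on chromosome 8 (72319033 to 72321656, plus strand), was at 95.2, 106, 143 and 146 CPM with HCME-sEVs and at 139, 134 and 133 CPM with LME-sEVs. All 3 LME-sEV values fell between the lower and the upper pair of HCME-sEV values, and the means of 122 ± 25.7 CPM (SD, n = 4) and 135 ± 2.96 CPM (SD, n = 3) gave a log2FC of 0.14 with an FDR of 0.510. Its fold interval of 0.933 to 1.31 includes no change as well as a rise, and without HCME-sEV 1 the log2FC was 0.04. *Klf3*, on chromosome 5 (64803388 to 64832901, plus strand), was at 30.8, 36.7, 35.5 and 47.3 CPM with HCME-sEVs and at 35, 32.4 and 27.7 CPM with LME-sEVs. It had the lowest estimate of the 9, a log2FC of -0.26 with an FDR of 0.280, from overlapping groups with means of 37.6 ± 6.93 CPM (SD, n = 4) and 31.7 ± 3.67 CPM (SD, n = 3). The estimate was -0.35 without HCME-sEV 1, -0.12 without HCME-sEV 4 and -0.16 without LME-sEV 3, none past the threshold. The log2 ratio of *Klf2* over *Klf3* averaged 1.68 ± 0.21 with HCME-sEVs (SD, n = 4) and 2.08 ± 0.14 with LME-sEVs (SD, n = 3), with an exact two-sided permutation p of 0.0857 and an adjusted p of 0.129.

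For single genes, the exact two-sided permutation test has 35 arrangements and cannot give a p below 0.0286. *Btg2* reached this floor, *S1pr1*, *Il7r* and *Foxo1* gave an exact p of 0.0571, and *Ccr7* gave 0.114. The groups did not overlap for 4 of the 9 members, each with LME-sEVs higher, where 9.49% of all tested genes were separated that way. No member was separated with LME-sEVs lower, as 10.8% of tested genes were.

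The members shared some, but not all, of their variation across libraries. Summed over the 9 genes, the level was 1202, 1354, 1511 and 1430 CPM in HCME-sEV libraries 1 to 4 and 1600, 1620 and 1600 CPM in LME-sEV libraries 1 to 3. HCME-sEV 1 lay furthest below each gene's own mean for *S1pr1*, by -0.87 on the log2 scale, and much less so for *Foxp1*, at -0.07. HCME-sEV 3 was the highest of its group for 5 members and HCME-sEV 4 for the other 4. The pair of members with the most alike pattern was *Il7r* and *Btg2*, with a root mean square difference of 0.0884 between their centered log2 CPM over the 7 libraries, and the least alike were *Klf3* and *S1pr1* at 0.516. Among 7848 genes averaging 50 counts or more, the patterns closest to *Btg2* were those of *Selenop* (0.0533), *Adgre5* (0.0563), *Fam102b* (0.0736), *Cblb* (0.0768) and *Thra* (0.0776). The closest to *Klf3* were *Ago3* (0.0843), *Slc25a32* (0.0908), *Lpcat1* (0.104), *Fbxo45* (0.106) and *Rbm4b* (0.107). These distances describe 7 libraries and carry no test.

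**Figure D4:**
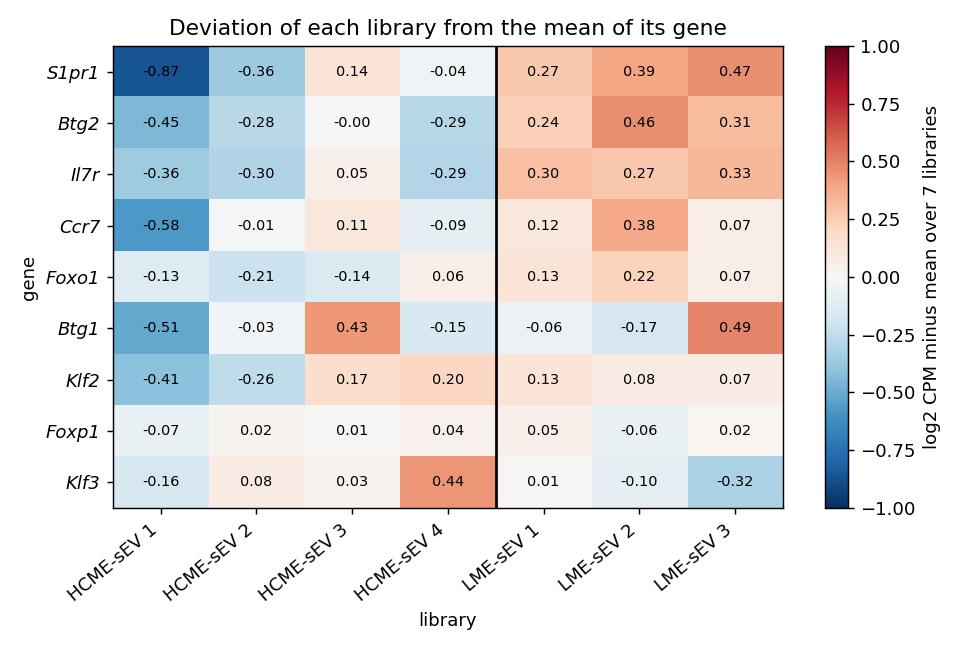
Deviation of each gene's log2 CPM from its own mean over the 7 libraries, by library, for the 9 genes. HCME-sEV 1 has the lowest value of the HCME-sEV group for 8 of 9 genes, and the LME-sEV libraries lie above zero for *S1pr1*, *Il7r*, *Ccr7*, *Btg2*, *Foxo1* and *Klf2*.

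Because FOXO1 and the KLF factors act by binding DNA near their target genes, promoter windows of the members are shown, from 250 bases before to 50 bases after the transcription start given by RefSeq on GRCm38.p6. Windows were at hand for 7 of the 9 members, 9 windows in all. Each was searched on both strands for CACCC, the core of KLF sites, and for GTAAACA, a FOXO site, whose complements read GGGTG and TGTTTAC and do not overlap each other. The windows of *Btg2* and *Il7r*, which were higher with LME-sEVs, are printed with those of *Btg1*, which holds the group's only FOXO match, and *Klf2*, which holds a KLF match. Capitals mark the matches. The windows are chr1:134079106-134079405 (minus strand) for *Btg2*, chr15:9529827-9530126 (minus strand) for *Il7r*, chr10:96616751-96617050 (plus strand) for *Btg1* and chr8:72318812-72319111 (plus strand) for *Klf2*, each 5′ to 3′.
Btg2: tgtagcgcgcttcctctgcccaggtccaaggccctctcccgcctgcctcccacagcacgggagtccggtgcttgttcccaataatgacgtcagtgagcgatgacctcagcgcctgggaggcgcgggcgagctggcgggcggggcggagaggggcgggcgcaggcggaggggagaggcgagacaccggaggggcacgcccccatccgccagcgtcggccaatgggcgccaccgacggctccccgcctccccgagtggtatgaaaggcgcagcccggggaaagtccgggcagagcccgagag
Il7r: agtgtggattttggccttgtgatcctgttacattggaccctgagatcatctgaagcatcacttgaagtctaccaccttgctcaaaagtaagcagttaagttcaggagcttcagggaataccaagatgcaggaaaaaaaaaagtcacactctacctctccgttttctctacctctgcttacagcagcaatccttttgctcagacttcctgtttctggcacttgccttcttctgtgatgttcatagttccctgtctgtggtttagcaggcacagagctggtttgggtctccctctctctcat
Btg1: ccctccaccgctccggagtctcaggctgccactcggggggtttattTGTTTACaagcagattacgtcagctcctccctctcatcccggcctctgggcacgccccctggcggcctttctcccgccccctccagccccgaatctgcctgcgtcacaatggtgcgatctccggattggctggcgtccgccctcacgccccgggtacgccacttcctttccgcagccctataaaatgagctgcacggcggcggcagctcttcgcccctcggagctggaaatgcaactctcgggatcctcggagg
Klf2: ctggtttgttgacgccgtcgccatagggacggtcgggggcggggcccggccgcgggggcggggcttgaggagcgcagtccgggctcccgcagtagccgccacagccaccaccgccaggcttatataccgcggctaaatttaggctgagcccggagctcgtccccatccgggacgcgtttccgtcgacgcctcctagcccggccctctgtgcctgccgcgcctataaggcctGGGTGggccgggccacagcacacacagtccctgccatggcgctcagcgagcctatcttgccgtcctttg

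The *Il7r* window lies inside the gene as annotated above, because RefSeq places its start downstream of the one in GENCODE, so it does not cover the sequence before the GENCODE start. The *Btg2* and *Il7r* windows hold neither motif, as does that of *Foxo1*. The match in *Btg1* begins 204 bases before the start, and 1 of 9 windows held this motif, against 3.65% of the 32851 mouse windows searched. The match in *Klf2* begins 19 bases before the start. *Klf3* had 5 KLF matches and 2 of the 3 *Foxp1* windows had 3 and 2, so that 4 of 9 windows held CACCC or its complement, against 57.5% of all windows. Base composition differed widely, with 72% G and C in *Btg2* and 45.7% in *Il7r*, where the median of all windows was 52.7%. A match is a string of letters and says nothing on binding, and its absence says only that these letters are not in this window.

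No tested relative from the KLF, FOXO, FOXP, BTG/TOB and sphingosine-1-phosphate receptor families passed the threshold. Relatives of *Ccr7* and *Il7r*, such as other chemokine receptors, were not in this list. Of 29 paralogs (other KLF, FOXO, FOXP, BTG/TOB and sphingosine-1-phosphate receptor genes), 18 were tested and 0 passed the threshold in either direction, with a median log2FC of 0.04. Over all tested genes 8.96% passed it in either direction, and whether this short list differs from that share was not tested. At an unadjusted p under 0.05, 1 was higher and 2 lower, and DESeq2 and limma-voom called 0. A fit without HCME-sEV 1 called 1 paralog lower, and a fit without HCME-sEV 3 called 1 higher.

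Among other regulators of quiescence, rises outnumbered falls. Of 27 tested genes, 8 rose and 1 fell, and 18 did not pass, with a median log2FC of 0.16 against 0.01 over all tested genes. *Pik3ip1*, an inhibitor of PI3K, was at 23.6, 31.9, 46.9 and 40.3 CPM with HCME-sEVs and at 60.3, 63.8 and 52 CPM with LME-sEVs, a log2FC of 0.72 (FDR of 0.00615). *Tsc22d3*, encoding the glucocorticoid-induced leucine zipper, rose by 0.56 (FDR of 0.0243). *Cblb*, a ubiquitin ligase that restrains T-cell activation, rose by 0.55 (FDR of 6.08e-04). The smallest called rises were those of *Tle5*, a corepressor, by 0.37, and *Rbl2*, a pocket protein of the cell cycle, by 0.39. The gene that fell was *Slfn2*, which is needed for T-cell quiescence in mice, by -0.27 (FDR of 0.0436). Without LME-sEV 2 only 2 genes of this list were called higher, and 3 without LME-sEV 3. *Slfn2* lost its call, leaving 0 genes lower, without HCME-sEV 2, HCME-sEV 4, LME-sEV 2 or LME-sEV 3, while 2 genes were lower without HCME-sEV 1.

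Genes of lymphoid homing and egress went both ways. Of 24 tested, 5 rose and 3 fell, with a median log2FC of 0.07. *Cxcr4*, the receptor for CXCL12, was at 8.19, 17.0, 15.5 and 16.8 CPM with HCME-sEVs and at 32.0, 37.5 and 30.2 CPM with LME-sEVs, a log2FC of 1.21 (FDR of 3.01e-04). *Cxcr5*, a receptor for B-cell follicles, rose by 0.84 (FDR of 0.0249), at no more than 49 counts in a library, and the integrin gene *Itga4* rose by 0.49 (FDR of 0.0024). *Cd69*, whose protein takes S1PR1 off the cell surface, was at 72.5, 62.1, 69.1 and 58.0 CPM with HCME-sEVs and at 35.8, 36.4 and 39.0 CPM with LME-sEVs, a log2FC of -0.82 (FDR of 1.31e-04) opposite in sign to that of *S1pr1*. *Rgs1*, which dampens chemokine receptor signaling, fell by 0.44 on the log2 scale (FDR of 0.00307). Without LME-sEV 2 the count of called rises was 2, and it was 3 without LME-sEV 3, HCME-sEV 1 or HCME-sEV 4; the count of falls was 2 without LME-sEV 1 or LME-sEV 3.

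Of 18 genes of IL-7 receptor signaling, 2 rose and 4 fell, with a median log2FC of -0.05. *Ets1* rose by 0.41 (FDR of 0.0212) and *Stat5b*, a transcription factor activated by IL-7 and IL2, by 0.29 (FDR of 0.0355). *Cish*, a STAT5 target that feeds back on cytokine receptors, was at 239, 171, 145 and 213 CPM with HCME-sEVs and at 109, 90.3 and 93.5 CPM with LME-sEVs, a log2FC of -0.98 (FDR of 1.47e-04). *Socs1*, another feedback inhibitor, fell by 0.62 on the log2 scale (FDR of 0.00529), and *Bcl2*, the survival gene, fell by 0.53 on the log2 scale (FDR of 0.00153). The 2 calls for higher genes were lost, leaving 0, without LME-sEV 2, without LME-sEV 3 and without HCME-sEV 2, and 1 was left without HCME-sEV 1 or HCME-sEV 3.

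Of 29 genes of PI3K, AKT and FOXO control, 1 rose, *Pik3ip1*, and 0 fell, with a median log2FC of 0.04. Over all tested genes 3.75% rose and 5.21% fell. At an unadjusted p under 0.05, 7 were higher and 2 lower, and DESeq2 and limma-voom called 0 lower. The *Pik3ip1* call was lost without LME-sEV 2, and 2 genes were called without HCME-sEV 3.

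Of 20 FOXO1 target genes other than the members, 9 rose and 1 fell, with a median log2FC of 0.32. *Bcl6*, a transcriptional repressor, was at 5.78, 11.9, 9.87 and 7.45 CPM with HCME-sEVs and at 18.3, 22.5 and 19.8 CPM with LME-sEVs, a log2FC of 1.22 (FDR of 6.62e-04). *Fbxo32*, a ubiquitin ligase gene, rose by 0.73 (FDR of 0.0064) and *Cdkn1b*, the cell cycle inhibitor p27, by 0.41 (FDR of 0.0132). *Pik3ip1* and *Rbl2*, given above, are in this list too. Without LME-sEV 2 the count of rises was 4, and 5 without LME-sEV 3; the count of falls was 0 without LME-sEV 1 and without LME-sEV 3.

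Among T-cell activation markers, falls outnumbered rises. Of 20 tested genes, 9 fell and 2 rose, with a median log2FC of -0.29. Besides *Cd69*, *Il2ra*, the α chain of the IL2 receptor, was at 595, 538, 520 and 519 CPM with HCME-sEVs and at 365, 338 and 366 CPM with LME-sEVs, a log2FC of -0.61 (FDR of 1.06e-04). *Tfrc*, the transferrin receptor, fell by 0.48 on the log2 scale (FDR of 0.0011). The rises were in *Cd38*, by 0.90 (FDR of 0.00941), and *Pdcd1*, encoding PD-1, by 0.68 (FDR of 0.00128). The count of falls was 5 when 1 of HCME-sEV 2, LME-sEV 1 or LME-sEV 2 was left out, and the count of rises was 1 without LME-sEV 2. The proliferation gene *Mki67*, singled out after its values were seen, was at 411 ± 16.4 CPM (SD, n = 4) and 422 ± 32.9 CPM (SD, n = 3), an FDR of 0.818. All lists come from the same 7 libraries, and 26 of the 143 genes in them are in more than 1 list, so that the counts are not independent of each other. The lists too were chosen with earlier results of these data known.

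**Figure D5:**
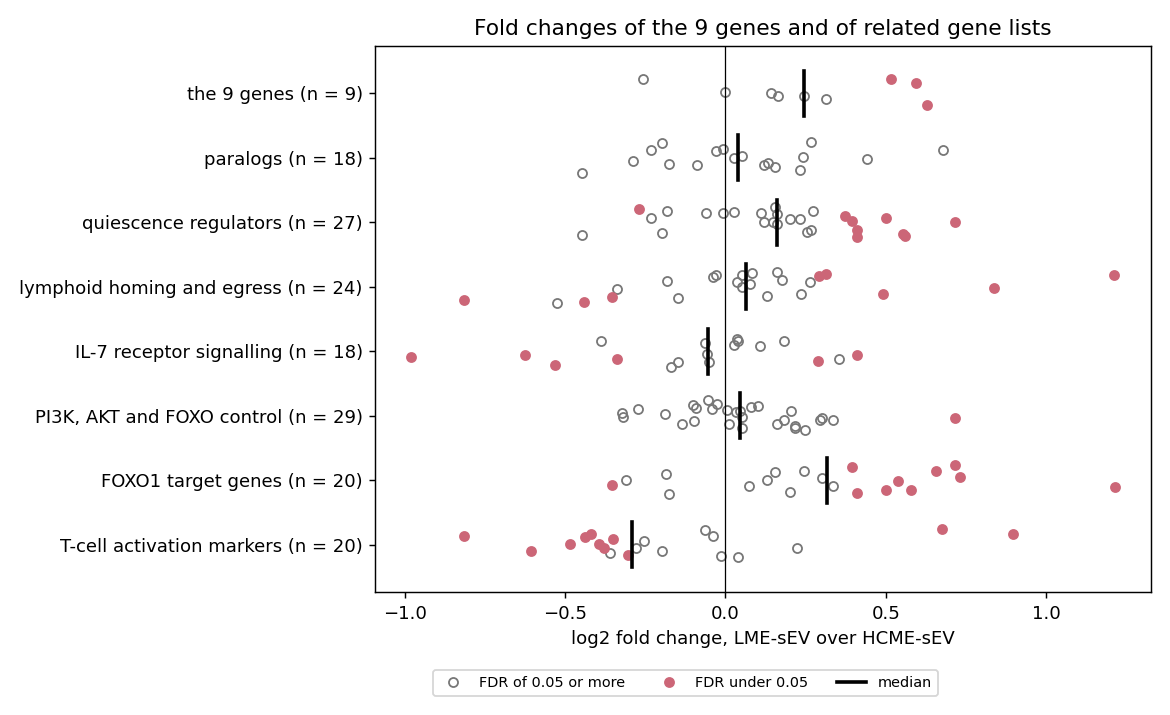
Log2FC, LME-sEV over HCME-sEV, of each tested gene of the 9 and of the 7 related lists; filled points have an FDR under 0.05 and vertical bars are medians. Medians run from -0.29 for the activation markers to 0.32 for the FOXO1 target genes.

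Some lists of cell type markers also held called genes, and others held none. Of 10 CD8 T-cell markers, among which *Thy1* was highest at 739 CPM, 3 rose and 0 fell, and their summed level was 3044 to 3159 CPM with HCME-sEVs and 3260 to 3605 CPM with LME-sEVs. Of 6 CD4 T-cell and Treg markers, the 3 with enough counts (*Ikzf2*, *Trat1* and *Zbtb7b*) all rose, from a sum of 128 to 224 CPM to one of 333 to 378 CPM, while the defining *Cd4*, *Foxp3* and *Cd40lg* had at most 5 counts in any library. Of 14 B-cell markers, 9 were tested and 2 rose, *Ighm* and *Cd74*, with sums of 264 to 310 CPM and 357 to 387 CPM, and the defining *Cd79a* had at most 2 counts. Of 10 basophil, mast-cell and eosinophil markers, 8 were tested and 3 rose, with sums of 15.2 to 46.4 CPM and 39.7 to 55.7 CPM. Of 9 erythroid and platelet markers, 7 were tested and 3 rose, with sums of 74.7 to 182 CPM and 158 to 205 CPM. Myeloid markers (3 of 12 tested, 104 to 140 CPM and 140 to 181 CPM, with *C1qa* at 0), NK-cell markers (2 of 6 tested, 200.5 to 218 CPM and 178 to 198 CPM) and endothelial and stromal markers (3 of 7 tested, 39.3 to 51.7 CPM and 47.9 to 50.3 CPM, with *Cdh5* at 0) had 0 calls in either direction. A single gene made up most of several sums. Mean levels over the 7 libraries were 203 CPM for *Ikzf2*, 272 CPM for *Ighm*, 125 CPM for *Cst3* (myeloid list) and 180 CPM for *Eomes* (NK-cell list). In contrast, *Lyz2* of the myeloid list had at most 5 counts in any library, and *Ncr1* of the NK-cell list at most 1. Some members are also expressed by B cells and other lymphocytes, and the part of these cells in the members' differences was not tested. HCME-sEV 1, the lowest of the HCME-sEV libraries for 8 members, had the lowest sums of the 7 libraries for the T-cell, B-cell, myeloid, basophil and erythroid lists.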

How the data were processed

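RNA of 7 mouse CD8+ T-cell cultures (4 HCME-sEV, 3 LME-sEV) was sequenced from 3′ ends. The authors trimmed reads with cutadapt 2.10, aligned them to GRCm38 with STAR 2.5.3a, collapsed duplicates by molecular identifier with UMI-tools 1.0.0 and counted with featureCounts (Subread 2.0.0), per the submitters' processing notes and the study's methods; the deposited values are whole-number counts per gene, not normalized. The annotation and strand setting used in counting are not given in the sources used here. The labels set 4 cultures as HCME-sEV and 3 as LME-sEV, a legend of the study gives the group sizes the other way round, and the labels were followed. The labels state a vesicle concentration of 100 µg/ml for both groups, where the methods speak of the physiologic amount in the respective spleen. The study recovered more vesicle protein per gram from leukemic than from healthy spleens. By its methods the groups would therefore differ in vesicle dose as well as source, and these cannot be told apart here. The 9 genes and the related lists were chosen with earlier results of these data known.

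Genes averaging 5 counts or more per library were fitted with edgeR 4.0.16 (trimmed mean of M-values, glmQLFit and glmQLFTest, 7 libraries, 5 residual degrees of freedom, no covariate), with Benjamini-Hochberg adjustment over 12623 genes and a threshold of 0.05. The tests and 95% intervals use more degrees of freedom, a median of 20.3, because the fit also draws on the spread of other genes. Single genes and ratios were also tested by exact two-sided permutation. Log2 CPM used a prior count of 2. The genes named were the 9 members, the called genes with the 3 largest and 3 smallest changes of each list, the most abundant markers, and the 5 closest patterns of the members with the smallest FDR in each direction; other named genes were chosen after their values were seen. Some genes that enter the list counts are not reported here by name. In counts simulated from these libraries, the fit recovered 96% of the genes changed by a log2FC of 1 over 12623 genes, with 8 false calls. The changed genes were drawn only from the more abundant ones. The largest estimate among the members was 0.63, so the 96% does not give the recovery of changes of their size. Alternatives were no filter, edgeR's filterByExpr, DESeq2 size factors, upper-quartile scaling, library size alone, DESeq2 1.42.0, limma-voom 3.58.1, a replicate block and leaving out each library. Gene positions are from GENCODE vM21, and BLAST 2.17.0 was used to look for copies of the transcripts' last 300 bases (95% identity or more along 200 bases). Promoter windows are from RefSeq. Figures used matplotlib 3.10.9. Totals of 3689831 to 5030522 counts put 3 counts at 0.582 to 0.807 CPM.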

Additional observations from a re-analysis of the deposited data

Results flagged for a closer look

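Of 21 sets of 4 HCME-sEV values examined for a library far from the other 3, 2 were past Dixon's 95% critical value, where chance gives about 1.05. For *Il7r*, HCME-sEV 3, at 250 CPM, lay above the others (188, 195 and 197 CPM) by 0.857 of the group's range. For the summed NK-cell markers, HCME-sEV 2, at 200.5 CPM, lay below the others (216 to 218 CPM) by 0.89 of the range. Without HCME-sEV 3 the log2FC of *Il7r* was 0.62, against 0.52 with all libraries.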

How the results depend on the processing

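The calls of *Btg2* and *Il7r* held under every alternative run, and that of *S1pr1* under all but leaving out LME-sEV 2 or LME-sEV 3 (range 0.46 to 0.77 over the fits leaving out 1 library). *Ccr7* passed with no filter (log2FC of 0.32) and without HCME-sEV 3, with leave-one-out estimates of 0.19 to 0.40. *Foxo1* passed with library size alone (0.29) and without HCME-sEV 4 (0.20 to 0.30). *Foxp1* changed sign around zero, at 0.0072 with no filter, 0.0064 with filterByExpr, 0.0003 with DESeq2 size factors, 0.0441 with library size alone, 0.0208 with upper-quartile scaling, 0.0002 with DESeq2 and between -0.025 and 0.031 without 1 library. *Btg1* ran from -0.083 to 0.35. The cause was not tested.

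The values do not settle whether the replicate numbers pair the libraries. Deviations of same-numbered libraries from their group means, over 3000 genes, correlated at 0.411, 0.0767 and 0.243. LME-sEV 1 and LME-sEV 3 were each closest to the HCME-sEV library of their own number, and LME-sEV 2 to HCME-sEV 3. With the numbers as a replicate block, which drops HCME-sEV 4 from the contrast, 594 of all tested genes were called higher and 860 lower, and 5 members were called higher, adding *Ccr7* (0.34) and *Foxo1* (0.30), *Foxp1* was at 0.0131, 1 paralog was called higher, and 3 genes of PI3K, AKT and FOXO control higher and 1 lower.

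Counts also moved with other settings. *Slfn2*, the quiescence gene called lower, lost its call with no filter, library size alone and upper-quartile scaling (0 left), PI3K, AKT and FOXO control had 2 called higher with no filter, and activation markers had 5 called lower with library size alone. Without 1 library, all tested genes gave 168 to 544 higher and 223 to 761 lower, the members 2 to 4 higher, the paralogs 0 to 1 in each direction, quiescence regulators 2 to 10 higher and 0 to 2 lower, homing and egress 2 to 5 higher and 2 to 3 lower, IL-7 receptor signaling 0 to 2 higher and 3 to 5 lower, PI3K, AKT and FOXO control 0 to 2 higher, FOXO1 targets 4 to 10 higher and 0 to 1 lower, and activation markers 1 to 3 higher and 5 to 9 lower. In all, 115 of the fold changes refitted kept direction and side of the threshold, 12 changed sign, 6 gained and 2 lost a call. The 95% intervals of the log2FC, -0.54 to 0.03 for *Klf3* and -0.20 to 0.53 for *Btg1*, the least abundant members, show the size of change that these libraries could not resolve.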
